A study of Mus musculus with 16 samples.

Results

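The genes described here encode the enzymes that write and erase methylation of lysine 4 of histone H3 (H3K4), and the data are the H3K27ac and H3K4me3 peaks called over them in mouse late 2-cell embryos. A list of 10 gene symbols was looked up in the RefSeq gene table of GRCm38.p6, and all 10 were found among its 21883 protein-coding genes. They are 4 demethylases (Kdm5a, Kdm5b, Kdm1a and Kdm1b) and 6 methyltransferases (Kmt2a, Kmt2b, Kmt2c, Kmt2d, Setd1a and Setd1b).

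H3K4 is methylated by complexes of the COMPASS type, in which a catalytic subunit (SETD1A, SETD1B or one of the KMT2 proteins) works with a shared core. SETD1A and SETD1B are the main writers of H3K4me3 at active promoters, KMT2A and KMT2B act at subsets of promoters rich in CpG, and KMT2C and KMT2D write mainly H3K4me1 at enhancers. KDM5A and KDM5B remove the methyl groups of H3K4me3, whereas KDM1A and KDM1B remove those of H3K4me1 and H3K4me2. In mouse, KMT2B deposits broad H3K4me3 domains in the growing oocyte, KDM1B acts in the oocyte at imprinted loci, and the broad domains are removed around the 2-cell stage, a step that requires KDM5A and KDM5B.

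Embryos were collected 36 h after fertilization. Zygotes were injected with H2O (control) or with Hdac1 mutant mRNA (mutant); Hdac1 encodes a histone deacetylase, and the labels do not say which mutation was used or from which strain the embryos came. Chromatin was digested with micrococcal nuclease without crosslinking and precipitated with antibodies to H3K27ac, a mark of active promoters and enhancers, or to H3K4me3. The 16 libraries form 8 groups of 2, precipitated and input libraries for each mark and injection, and each of the 4 precipitated groups has 1 peak list. The lists held 77349 (H3K27ac, control), 122487 (H3K27ac, mutant), 86798 (H3K4me3, control) and 85780 (H3K4me3, mutant) peaks on the chromosomes used. No value below has a replicate error, no test between conditions could be made, and the depth of the libraries is unknown. A peak missing from a list was not called there, which does not show that the mark was absent. Fewer cells carrying a mark and less of the mark per cell cannot be told apart in such lists. Transcripts were not measured.

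A gene was called marked when a peak overlapped, by at least 1 bp, a window of 2 kb on each side of either of its ends; the windows of 1 gene hold 8002 bp. The promoter table of RefSeq (GRCm38.p6) gives the strand and start of 7 of the genes, with 250 bases before and 50 after the start; it has no entry for Kdm5a, Kmt2b and Setd1b. Below, the start of a gene is the end of its annotated span on the 5′ side, and the promoter given for Kmt2d (chr15:98871156-98871455) lies inside that span, beyond the window. The promoters of 4 genes follow, 5′ to 3′ on the gene's own strand, with each CG dinucleotide in capitals. Those of Kdm1a, Kdm1b and Kmt2a are shown because the mutant H3K27ac list had no peak within 2 kb of these genes' starts, and that of Kdm5b because both marks were called there in both conditions.
Kdm1a, chr4:136602674-136602973, minus strand: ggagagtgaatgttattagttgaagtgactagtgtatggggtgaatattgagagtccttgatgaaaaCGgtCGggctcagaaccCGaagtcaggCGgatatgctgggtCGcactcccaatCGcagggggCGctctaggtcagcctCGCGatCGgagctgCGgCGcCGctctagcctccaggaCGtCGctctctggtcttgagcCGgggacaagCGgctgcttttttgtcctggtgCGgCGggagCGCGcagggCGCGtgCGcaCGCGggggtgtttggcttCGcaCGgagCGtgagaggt
Kdm1b, chr13:47043249-47043548, plus strand: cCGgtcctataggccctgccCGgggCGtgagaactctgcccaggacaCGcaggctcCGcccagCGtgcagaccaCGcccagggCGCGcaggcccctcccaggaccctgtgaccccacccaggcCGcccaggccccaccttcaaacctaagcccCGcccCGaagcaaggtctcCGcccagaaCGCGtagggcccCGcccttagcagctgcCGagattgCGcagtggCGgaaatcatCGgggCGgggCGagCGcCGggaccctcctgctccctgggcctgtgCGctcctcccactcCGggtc
Kmt2a, chr9:44881240-44881539, minus strand: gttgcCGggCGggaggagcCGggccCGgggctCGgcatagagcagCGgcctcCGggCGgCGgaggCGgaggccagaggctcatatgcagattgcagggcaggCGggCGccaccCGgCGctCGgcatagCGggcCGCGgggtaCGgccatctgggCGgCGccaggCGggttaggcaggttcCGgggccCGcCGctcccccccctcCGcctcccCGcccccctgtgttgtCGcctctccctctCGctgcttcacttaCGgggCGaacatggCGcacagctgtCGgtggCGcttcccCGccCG
Kdm5b, chr1:134559928-134560227, plus strand: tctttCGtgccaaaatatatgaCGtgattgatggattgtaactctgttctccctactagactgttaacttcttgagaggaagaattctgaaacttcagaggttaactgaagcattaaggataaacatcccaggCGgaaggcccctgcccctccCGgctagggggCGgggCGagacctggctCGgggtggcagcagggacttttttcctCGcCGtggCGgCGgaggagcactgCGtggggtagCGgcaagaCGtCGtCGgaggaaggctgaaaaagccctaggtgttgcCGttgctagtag

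These promoters are rich in CG, the dinucleotide bound by the CXXC domains of KMT2A and KMT2B when it is unmethylated. The Kdm1a promoter holds 29 CG, that of Kdm1b 26, that of Kmt2a 36 and that of Kdm5b 17. The promoters of Kmt2c, Kmt2d and Setd1a hold 56, 27 and 35. Over all 32851 promoters of the table the median was 7 and the upper quartile 20, so 6 of the 7 lay above the upper quartile. On either strand, the GC box GGGCGG, which contains a CG, occurred in 5 of the 7 promoters and in 35.7% of all promoters. The CCAAT box (CCAAT) occurred in 1 of the 7, that of Kdm1a, and in 37.4% of all promoters. The TATA box (TATAAA) occurred in 0 of the 7 and in 13.6% of all. All 300 bases of each of the 7 promoters lay under H3K4me3 peaks in control and again in mutant embryos; this held for 51.2% and 49.9% of all promoters. H3K27ac peaks covered all 300 bases at 5 of the 7 in control and at 4 in mutant embryos, against 26.7% and 21.8% of all promoters. The promoter of Kdm1a was the one that differed, with 300 bases under H3K27ac in the control list and 0 in the mutant list. At Kmt2a the H3K27ac peak covered 133 of the 300 bases in the control list and 0 in the mutant list, and at Kdm1b the promoter bases were outside the H3K27ac peaks of both lists.

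At their ends, all 10 genes had H3K4me3 in both conditions, while H3K27ac was found at 9 genes in control and at 8 in mutant embryos. Of all protein-coding genes, 74.7% had H3K4me3 there in the control list and 72.9% in the mutant list, and 54.8% and 58% had H3K27ac. Of the 9 genes with control H3K27ac, Kdm1a and Kdm1b had none in mutant embryos, and 22.7% of all genes with a control peak had none either. Kmt2b had H3K27ac in mutant embryos alone; of all genes without a control peak, 34.6% had one in mutant embryos. Both marks were called in both conditions at 7 of the 9 genes that had both in control (76.4%). Of the 10 genes, 0 had H3K4me3 at an end in control and at neither end in mutant embryos (8.94%), although a peak of 244 bp near the far end of Setd1a was called in control alone. In covered sequence at the ends, H3K27ac was lower by at least 1.5-fold at 5 of 9 genes (49.9% of all genes with control coverage) and higher by that factor at 0 (16.9%). The median mutant to control ratio of H3K27ac bases was 0.607 over the 9 genes and 0.669 over all genes. H3K4me3 was lower by 1.5-fold at 0 of 10 genes (20.2%) and higher at 1 (16.9%), with a median ratio of 1.08 against 1 over all genes.

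**Figure D1:**
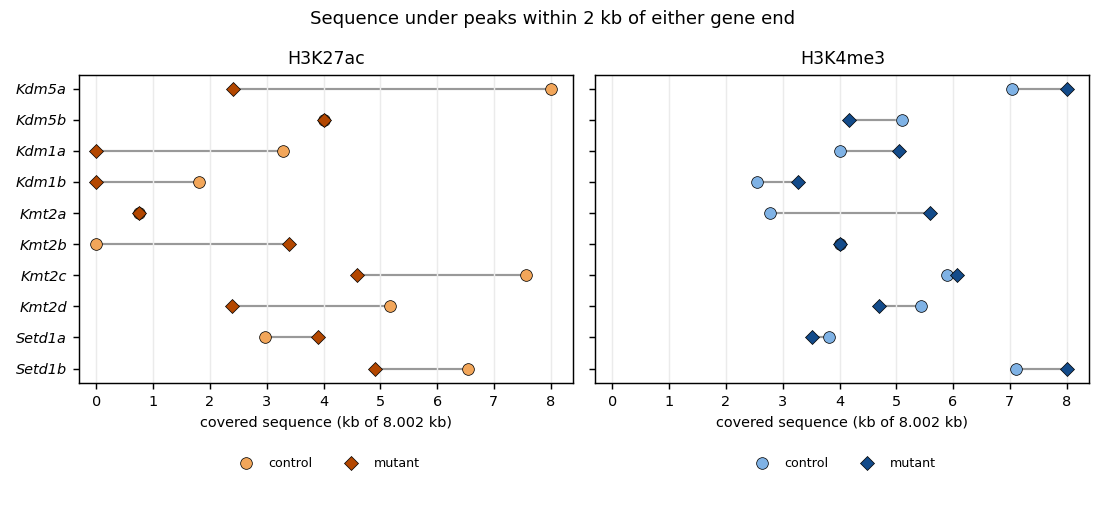
Sequence under H3K27ac (left) and H3K4me3 (right) peaks, in kb of the windows within 2 kb of both ends of each gene, in control (circles) and mutant (diamonds) embryos, 1 peak list per point. H3K27ac points lie at 0 for Kdm1a and Kdm1b in mutant and for Kmt2b in control embryos, whereas every H3K4me3 point lies above 2.5 kb.

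Among the demethylases, H3K27ac at the ends added up to 17100 bp in the control list and 6404 bp in the mutant list, a ratio of 0.375, with Kdm5a giving the greatest part of the difference. The methyltransferases had 22997 and 19927 bp, a ratio of 0.867, and the ratio over all genes was 0.860. Over the loci the ratios of both classes were closer, 0.786 and 0.801, and the difference between the classes was not tested. H3K4me3 at the ends of the demethylases was 18686 and 20478 bp. Kdm5a (chr6:120364099-120444574), an eraser of H3K4me3, had all 8002 bp of its windows under H3K27ac in the control list and 2403 bp in the mutant list, a ratio of 0.30. In control embryos a peak of 30176 bp lay over its lower-coordinate end and one of 14592 bp over the other. In mutant embryos the lower end had no H3K27ac peak, the nearest starting 2010 bp inside the gene, and the upper end had one of 2403 bp. H3K4me3 covered that lower window in full in both lists, with 4001 of 4001 bp.

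Kdm5b (chr1:134560178-134632878), the other H3K4me3 eraser, had its start window full in each condition, with 4001 of 4001 bp under H3K27ac. With windows of 5 kb the mutant coverage was lower by over 1.5-fold, with a difference of -4086 bp. The peak over its start measured 16237 bp in the control list and 13090 bp in the mutant list. Its H3K4me3 domain was among the widest of the group and nearly equal in both lists, with 32321 and 33245 bp. Both edges were close to each other as well: the domain ran from -4.91 to 27.4 kb relative to the start in control and from -5.78 to 27.5 kb in mutant embryos.

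Kdm1a (chr4:136550533-136602787), which encodes the H3K4me1 and H3K4me2 eraser also called LSD1, had 3284 bp of H3K27ac at its ends in the control list and 0 bp in the mutant list. A control peak of 9912 bp covered the start, while the nearest mutant peak was 3315 bp away. H3K4me3 covered the 4001 bp around the start in full in both, under peaks of 16956 and 19316 bp. Kdm1b (chr13:47043373-47085279), its homologue known from oocytes, had 1813 bp of H3K27ac in the control list and 0 bp in the mutant list. The mutant list did hold a peak just outside the window, 2266 bp from the start and 1536 bp wide, and a smaller one before the start. Windows of 5 kb reach both, and with them the coverage was 13 bp higher in mutant embryos. Its H3K4me3 bases at the ends numbered 2548 in the control list and 3264 in the mutant list.

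The methyltransferases differed among themselves in the direction of H3K27ac. Kmt2a (chr9:44803355-44881352, also called Mll1) had 747 bp in the control list and 755 bp in the mutant list, but at opposite ends: the control peak covered the start, and the mutant peak lay at the other end. The mutant peak nearest to the start was 4793 bp away. H3K4me3 bases at its ends numbered 2777 in the control list and 5598 in the mutant list, a ratio of 2.02, the only ratio of the 10 genes past 1.5-fold in that mark. With windows of 1 kb or at the start alone this ratio did not pass 1.5-fold.

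Kmt2b (chr7:30568855-30589056), the writer of broad domains in oocytes, had 0 bp of H3K27ac in the control list and 3382 bp in the mutant list. The nearest control H3K27ac peaks were 9452 bp from its lower end and 26805 bp from its upper end. H3K4me3 covered 4001 bp, the whole upper window, in both conditions and 0 bp of the lower window. The body of Zbtb32 reaches into the upper window. Of both mutant H3K27ac peaks there, one of 2265 bp covered the end of Kmt2b, and the other, of 10052 bp, lay wholly within Zbtb32.

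Kmt2c and Kmt2d encode enhancer-type writers of H3K4me1. At Kmt2c (chr5:25271795-25498855) H3K27ac covered 7569 bp in the control list and 4594 bp in the mutant list. The start was covered in full in both, and the lower value came from the other end, with 3568 and 593 bp. Kmt2d (chr15:98831669-98874077) had 5163 bp in the control list and 2384 bp in the mutant list, with less at the start (1960 and 814 bp) and at the other end (3203 and 1570 bp). With windows of 5 kb neither Kmt2c nor Kmt2d was lower by 1.5-fold.

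At the ends, the genes of the promoter H3K4me3 writers were within 1.5-fold in both marks. Setd1a (chr7:127777389-127800122) had 2972 bp of H3K27ac in the control list and 3900 bp in the mutant list, all at its start, and Setd1b (chr5:123142040-123168630) had 6546 and 4912 bp. With peaks less than 1 kb apart joined, Setd1b was lower by over 1.5-fold, with a difference of -2592 bp. Within the body of Setd1a, H3K27ac covered 9139 bp in the control list and 5446 bp in the mutant list, a ratio of 0.596. Their H3K4me3 bases at the ends were 3808 and 3510 bp at Setd1a and 7109 and 8002 bp at Setd1b.

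The strand of 7 genes allowed the start to be told from the other end. All 7 had H3K27ac within 2 kb of the start in control embryos, compared with 45.6% of the 17491 genes whose strand the table gives. In mutant embryos 4 did, compared with 44.9%. The genes without it were Kdm1a, Kdm1b and Kmt2a, 3 of 7, beside 34.4% of all genes with a control peak at the start. All 7 had H3K4me3 at the start in both conditions (71.1% and 67.8% of genes). At the other end H3K27ac was called at 2 of 7 genes in the control list and 3 in the mutant list (36.7% and 37.7%), and H3K4me3 at 4 and 5 (40.2% and 39.2%).

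**Figure D2:**
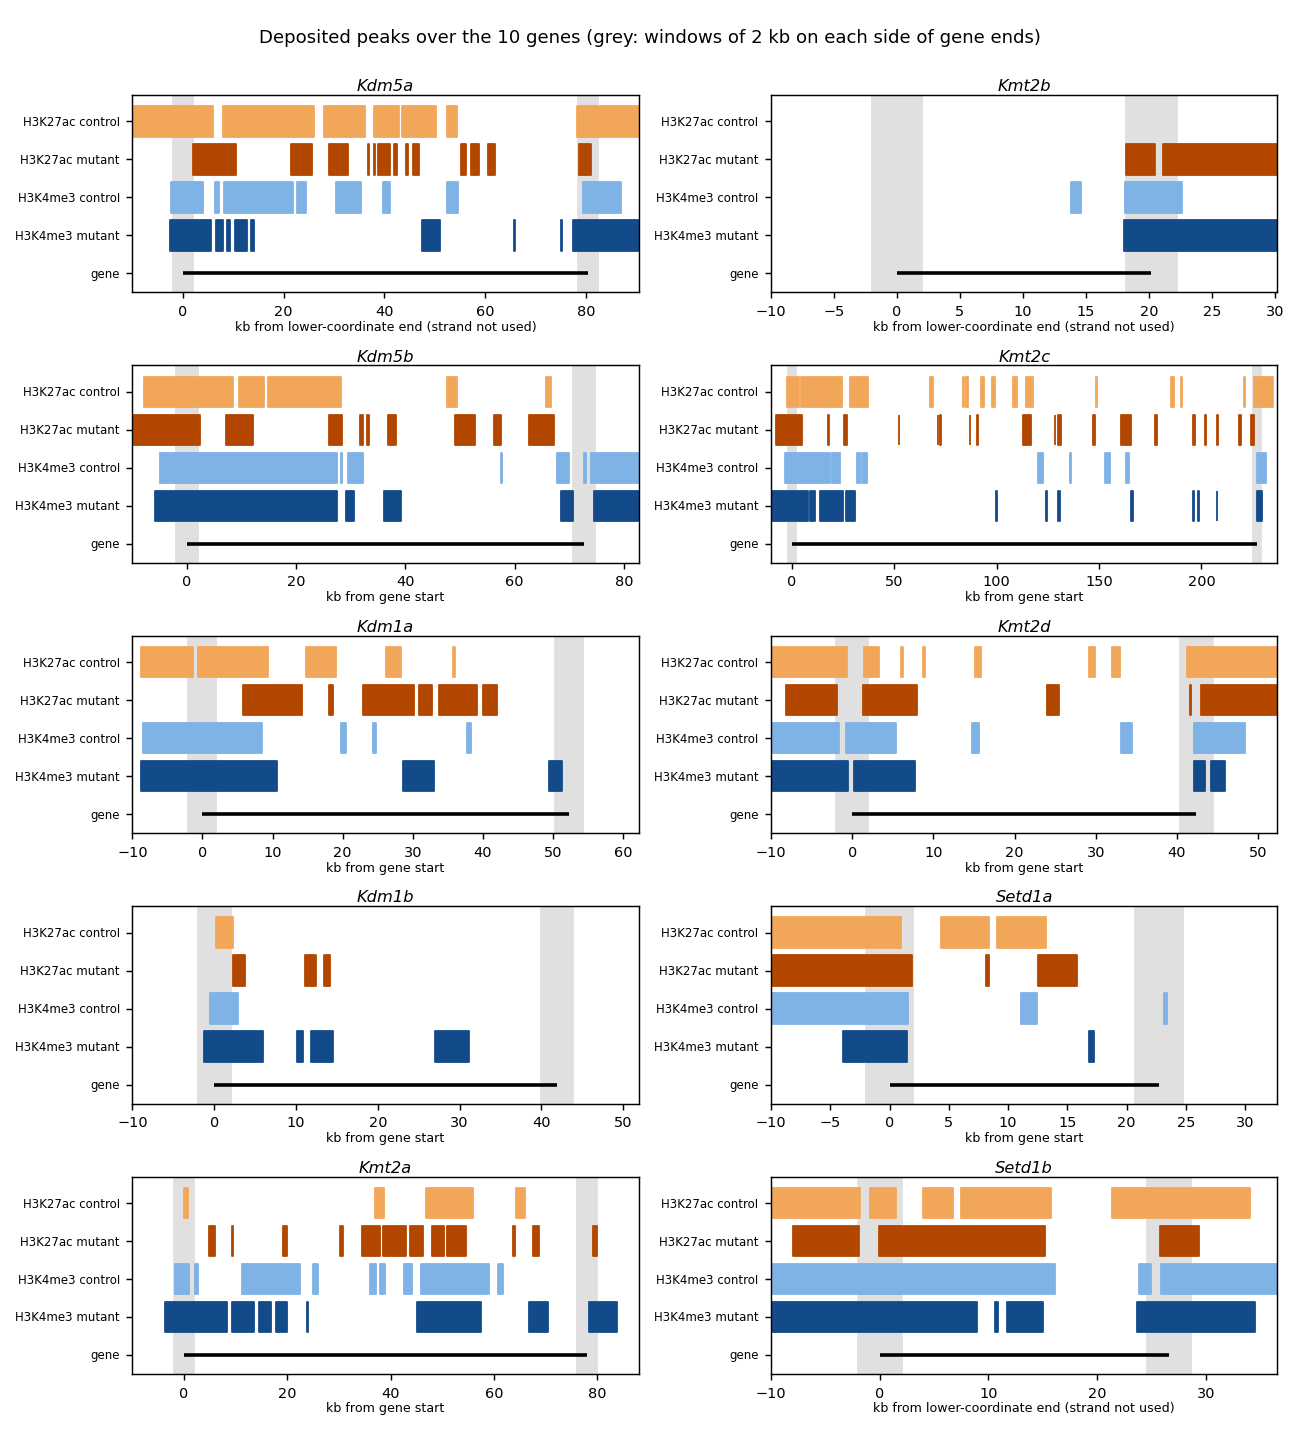
Deposited peaks that reach each gene or the 2 kb on each side of it. The axis shows 10 kb on each side, and peaks reaching farther are drawn to the edge. Peaks lying wholly more than 2 kb from the gene are not drawn, so an empty flank there need not be free of peaks. The horizontal axis is the distance in kb from the gene's start, or from its lower-coordinate end for Kdm5a, Kmt2b and Setd1b, the 4 rows of bars are the peak lists, the black line is the gene and grey bands are the windows of 2 kb. H3K4me3 lies over the start of all 7 oriented genes or within 2 kb of it in both conditions, and H3K27ac is missing there in mutant embryos at Kdm1a, Kdm1b and Kmt2a.

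The full width of the H3K4me3 peaks at the ends is not limited by the windows. The widest such peak was wider in mutant embryos at 7 of 10 genes (62.6% of all genes with a peak in both) and narrower at 3 (37.4%). It was at least 2-fold wider at 5 genes (23.7%), namely Kdm5a, Kdm1b, Kmt2a, Kmt2b and Kmt2c, and at least 2-fold narrower at 1 (10.5%), Setd1a. The factor of 2 in width was set once the lists were known. At Kmt2a the peak over the start measured 2777 bp in the control list and 12012 bp in the mutant list. At Kmt2c it measured 7627 and 32419 bp, and the mutant peak extended to -24.2 kb from the start where the control peak ended at -3.27 kb. A control peak of 13792 bp lay next to it inside the gene, and with peaks less than 750 bp apart joined the widths were 22115 and 32419 bp, a ratio of 1.47, so the 2-fold call at Kmt2c was lost. At Kdm1b the values were 3423 and 7248 bp. At Kmt2b they were 4563 and 18414 bp, and the mutant peak spanned the whole of the neighbouring Zbtb32. At Kdm5a the widest peak, at the upper-coordinate end, measured 7582 and 16133 bp. With windows of 5 kb the direction at Kdm5a turned, with widest peaks of 19151 and 16133 bp. Thus for each of these genes except Kdm1b the mutant peak exceeded 10 kb.

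Among the other genes, Kmt2d, Setd1a and Setd1b had the narrower peak in mutant embryos. At Setd1a the H3K4me3 peak over the start measured 12356 bp in the control list and 5423 bp in the mutant list, with the edge inside the gene at 1.56 and 1.51 kb, so the difference lay before the start, where the peak began at -10.8 kb in the control list and -3.91 kb in the mutant list. At Setd1b the widest peaks were 28225 and 20434 bp. At Kmt2d they were 27297 and 15064 bp and lay before the gene's start, from -28.9 to -1.61 kb and from -15.6 to -0.514 kb. With windows of 1 kb the widest peaks of Kmt2d were 6223 and 15064 bp, in the opposite direction. With peaks less than 1 kb apart joined, the mutant peak was the wider at Kmt2d (34271 and 34875 bp) and Setd1b (28225 and 32937 bp) and the narrower at Kdm1a (21815 and 19316 bp). Peaks wider than 5 kb reached the ends of 7 genes in control and of 10 in mutant embryos, against 39% and 47.6% of all genes; above 10 kb the numbers were 5 and 8, against 18.5% and 24.2%. For H3K27ac, 7 and 6 genes had a peak above 5 kb, against 33.8% and 25.3%, and 5 and 6 genes had one above 10 kb, against 22.3% and 9.84%. At 7 genes H3K27ac was called at the ends in both conditions. Their widest peak was wider in mutant embryos at 4 (32.8%) and narrower at 3 (67.2%). It was at least 2-fold wider at 0 (15.7%) and at least 2-fold narrower at Kdm5a alone (41.5%). The 4 include Kmt2a, with peaks of 747 and 755 bp that lay at opposite ends of the gene. Within their windows 9 of the 10 genes have sequence of another protein-coding gene, so a wide peak there may be shared with that gene.

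**Figure D3:**
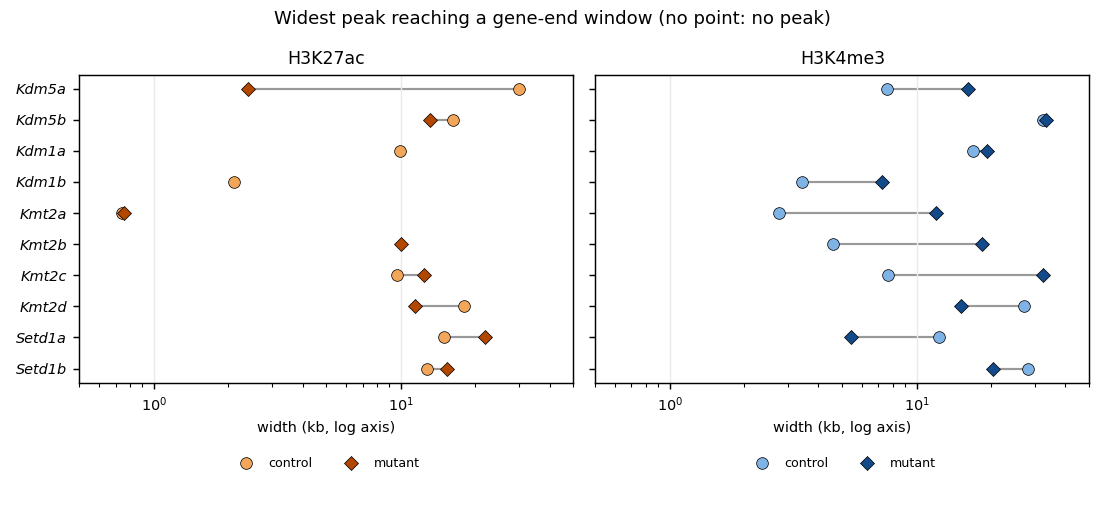
Width in kb, on a log axis, of the widest H3K27ac (left) and H3K4me3 (right) peak that reaches a window of 2 kb around the gene ends, in control (circles) and mutant (diamonds) embryos. H3K4me3 peaks were wider in mutant embryos at the 7 genes from Kdm5a to Kmt2c and narrower at Kmt2d, Setd1a and Setd1b.

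Over the whole gene with 2 kb on each side, called the locus here, the sum of H3K27ac over the 10 genes was 208889 bp in 53 peaks in control and 165849 bp in 76 peaks in mutant embryos. The ratio of these sums was 0.794, beside 0.894 over all protein-coding genes. H3K4me3 amounted to 198892 bp in 52 peaks and 201837 bp in 52 peaks, a ratio of 1.01 beside 1.06. The genes are long, from 20202 to 227061 bp, and for the 9150 protein-coding genes within that range the ratios were 0.871 and 1.04. H3K27ac was called over 9 of the 10 loci in control and over 10 in mutant embryos. Over all genes the shares were 69.5% and 72.4%, and over genes of that length 86.1% and 90.5%. None of the 9 loci was without H3K27ac in mutant embryos (11.4% of all genes). H3K4me3 was called over all 10 loci in both conditions, beside 79.4% and 78.1% of all genes and 92.2% and 91.2% of those of that length, so 0 of 10 were without it in mutant embryos (6.32%). H3K27ac bases were lower by 1.5-fold over 2 of 9 loci (40.5% of all genes, 35.5% of those of that length), and over 3 when other sets of peaks or the gene body alone were used, Setd1a being added with its ratio of 0.668, and higher over 2 (24.6% and 27.5%), Kdm1b and Kmt2a. In the wider 50% of each list, 0 loci were higher by 1.5-fold, and over the gene body alone 3 were. H3K4me3 bases were lower over 1 of 10 (21.8% and 22.8%) and higher over 2 (24.9% and 27.4%).

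The locus values show that H3K27ac missing from a start was not missing from the gene. Over Kdm1a, H3K27ac covered 17465 bp in the control list and 25575 bp in the mutant list, and over Kmt2a 13379 and 21381 bp. Over Kdm1b it covered 2111 and 3650 bp. The mutant peaks counted here lay inside these genes, except the peak of 755 bp beyond the far end of Kmt2a, as the map of peaks shows. Kdm5a and Kmt2c had less over the whole locus, 51671 and 27357 bp at Kdm5a and 52073 and 25350 bp at Kmt2c. The peaks over Kdm5a were also more and smaller, 7 in the control list and 13 in the mutant list, as peaks were in the whole list; over all protein-coding loci 49342 and 70528 H3K27ac peaks were counted.

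H3K4me3 over the loci was higher by 1.5-fold at both KDM1 genes and lower at Kdm5a. It covered 3423 bp of the Kdm1b locus in the control list and 14983 bp in the mutant list, a ratio of 4.38, with 1 and 4 peaks. At Kdm1a it covered 12186 and 18812 bp, a ratio of 1.54. At Kdm5a the values were 33986 and 22078 bp, a ratio of 0.65 and the greatest difference in bases of the 10 loci. This ratio did not pass 1.5-fold when neighbouring peaks were joined. The ratios of the other 7 genes lay between 0.767 and 1.09.

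Summed over the 10 loci, the bases under both marks were 139543 in the control list and 82080 in the mutant list. Of the H3K4me3 bases over the 10 loci, 70.2% also lay under H3K27ac in the control list and 40.7% in the mutant list, beside 56.6% and 37.3% over all protein-coding loci. The share was lower in mutant embryos at 7 of the 9 genes whose marks overlapped in control, near the 73.9% of all genes of that kind. Among them were the 4 demethylases, with 96.5% and 37.9% at Kdm5a, 77% and 33.7% at Kdm5b, 80.5% and 43.6% at Kdm1a, and 61.7% and 19.7% at Kdm1b. At Kdm1b the bases under both marks were more in mutant embryos, 2956 beside 2111, and the lower share came with more H3K4me3. Among the methyltransferases it was lower at Kmt2c, with 80.7% and 28.05%, and by little at Kmt2a (32.02% and 30.3%) and Setd1b (79.4% and 79.3%). It was higher at Kmt2b (0% and 81.5%), Kmt2d (46.6% and 68.5%) and Setd1a (83.9% and 88%). At the ends the direction was opposite at Kmt2d (62.4% and 30.04%) and at Kdm5b (78.5% and 96.1%). Whether demethylases and methyltransferases differ in this respect was not tested.

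**Figure D4:**
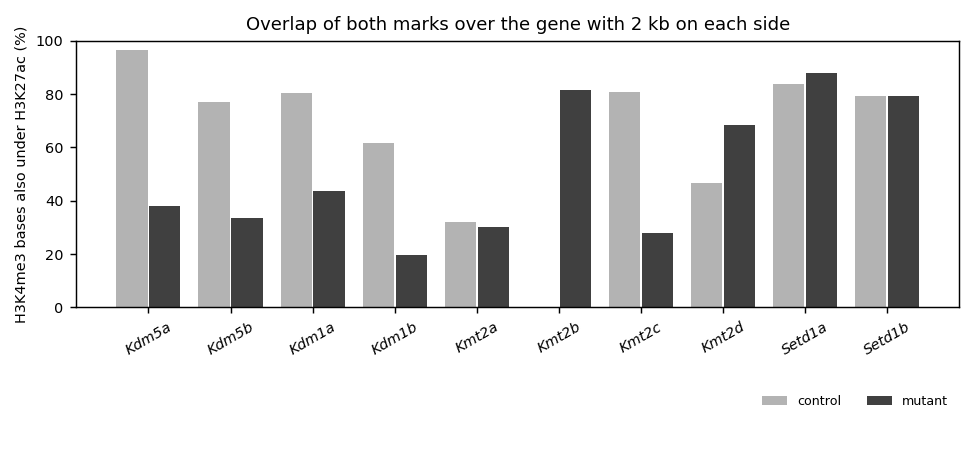
Percentage of the H3K4me3 bases over each gene with 2 kb on each side that also lay under an H3K27ac peak, in control (light bars) and mutant (dark bars) embryos, 1 value per pair of lists. The share was lower in mutant embryos at 7 genes (73.9% of all genes whose marks overlapped in control), by little at Kmt2a and Setd1b, and Kmt2b has no control bar because its value was 0.

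Other genes of the pathway were taken from a list of 21, all found in the gene table. All 21 had H3K4me3 at their ends in the control list and 18 in the mutant list, beside 74.7% and 72.9% of all protein-coding genes. Thus 3 of 21 had none in mutant embryos (8.94% of all genes with a control peak). H3K27ac was found at 17 and 14, beside 54.8% and 58%. Of the 17 genes with control H3K27ac, 5 had none in mutant embryos (22.7%). Of the 4 without it in control, 2 had it in mutant embryos (34.6%). All values that follow are for the ends. H3K27ac bases were lower by 1.5-fold at 10 of 17 genes and higher at 2, near the 49.9% and 16.9% of all genes, with a median ratio of 0.569 beside 0.669. Of the 4 core subunits shared by the COMPASS complexes, Wdr5 had 7195 bp of H3K27ac in the control list and 0 bp in the mutant list, and Dpy30 had 8002 and 0 bp. Rbbp5 differed in the other direction, with 855 and 3314 bp, while Ash2l had 4001 and 3343 bp. H3K4me3 remained called at all of them in both conditions, for instance over 8002 bp of the Dpy30 windows in both lists.

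Among subunits that only some of the complexes hold, H3K27ac was lower at Cxxc1 (3517 and 1605 bp), Hcfc1 (5613 and 2977 bp) and Pagr1a (6302 and 3585 bp). It was not called in mutant embryos at Kdm6a (1795 bp in control) and Paxip1 (487 bp in control). It was higher at Psip1 (1420 and 2904 bp) and was called in mutant embryos alone at Wdr82 (3248 bp). Of the demethylase partners, Rcor1, the CoREST subunit that carries KDM1A to nucleosomes, had 7296 bp in the control list and 0 bp in the mutant list. Glyr1, a partner of KDM1B, had 5364 and 3409 bp. The ends of the methyltransferase gene Setd7 had H3K27ac in mutant embryos alone, over 1052 bp, while its locus had 5843 bp in the control list and 8418 bp in the mutant list. H3K27ac was likewise called elsewhere in the loci of Wdr5, Dpy30, Kdm6a and Rcor1 in mutant embryos.

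H3K4me3 bases were lower by 1.5-fold at 5 of these 21 genes and higher at 0, beside 20.2% and 16.9% of all genes. The genes of the list on the sex chromosomes, except Hcfc1, were among them. Kdm5c on the X, another H3K4me3 eraser of the KDM5 family, had 5605 bp in the control list and 1930 bp in the mutant list. Kdm6a, also on the X, had 4001 and 0 bp, and Kdm5d on the Y had 503 and 0 bp, although Hcfc1 on the X had 3145 and 2853 bp. Of all X-linked genes with control H3K4me3, 47.6% were lower by 1.5-fold and 30.9% had no peak at an end in mutant embryos, beside 19.2% and 8.14% on the autosomes. For H3K27ac the shares without a peak at an end in mutant embryos were closer, 27.2% on the X and 22.6% on the autosomes. At Kdm5c H3K27ac was also lower, with 7385 and 1214 bp. The autosomal genes were Men1, which encodes the menin subunit of the KMT2A and KMT2B complexes (6798 and 4001 bp), and Paxip1 (2487 and 0 bp). None of the 10 enzymes above is on a sex chromosome.

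The gene whose coverage resembled that of an enzyme most was sought over the 4 shares of locus bases under peaks, by Euclidean distance in percentage points. For Kmt2b it was Mtcp1 (distance 1.94), with shares of 0% and 15.6% for H3K27ac and 20.4% and 18.2% for H3K4me3, beside 0%, 13.97%, 20.6% and 17.2% at Kmt2b. For Kdm5a it was Cltc (4.93) and for Kdm1b Fam114a1 (3.29). For Kdm5b it was Bcl7a (3.11), for Kdm1a Ttc14 (4.997) and for Kmt2a Cox4i1 (4.42). Kmt2c was most like Cnnm2 (2.51), Kmt2d most like Brd9 (2.98), Setd1a most like Kdm4c (2.67) and Setd1b most like 1700016D06Rik (5.90). The likeness rests on 4 values per gene.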

How the data were processed

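Peak lists of 4 groups (2 marks, 2 injections) were analysed; input libraries enter only through the authors' use of them. Per the file contents each deposited list gives chromosome, start and end of a peak, with no height or p-value. Per the submitters' processing notes, CASAVA, Trimmomatic, Bowtie2, SAMtools, Picard, MACS2 and deepTools were used with mm10 (GRCm38); settings, versions and whether the 2 libraries of a group were pooled are not given in the sources used here. The smallest width (149 to 182 bp) and gap (602 to 734 bp) differ between lists, so the limits on calling and joining peaks may differ too.

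Starts were taken as counted from 0, as in BED, and printed from 1. Chromosomes 1 to 19, X and Y were used, which left out 95, 20, 59 and 24 peaks (H3K27ac control and mutant, H3K4me3 control and mutant). Number of peaks, covered bases and widest peak (its full width) were computed with Python 3.11.15, numpy 2.4.6 and pandas 2.3.3 for windows of 2 kb around both gene ends, for the body and for both together (the locus), for every protein-coding gene. A 1.5-fold difference in covered bases was the call. No p-values are given. The code was tested on simulated data. The genes and lists were chosen with earlier results of these data known. All 10 enzymes are named; of the pathway list, those past 1.5-fold at the ends or marked in 1 condition alone are named, and Ash2l is added to complete the core. Alternatives varied windows, joining of peaks, minimum width and list size.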

Additional observations from a re-analysis of the deposited data

How the results depend on the processing

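Counts at the ends were recomputed with windows of 1 and 5 kb and at the start alone (7 genes), the presence of a peak also with at least 200 bp covered, and values of the locus over the gene body alone. Values for windows of 2 kb and for the locus were also recomputed with 5 changed sets of peaks. These sets were not combined with the other windows or with the gene body alone. They were joined below 750 bp with a minimum of 200 bp, joined below 1 kb, at least 500 bp wide, the wider 50% of each list, and lists of equal size. Promoter coverage, H3K27ac widths, peaks above 5 and 10 kb, the pathway genes and the most similar genes had no alternative. The same holds for counts of genes marked in 1 condition alone or with both marks in both, and for counts at the other end. Median ratios at the ends, sums by enzyme class, presence of a peak over the locus, and overlap of both marks at the ends or at single genes had none either. Of the recomputed values that answer a comparison, 119 were within 1.5 times the reported value, some of them shifted by 1 to 3 genes, and 9 were not. Of the covered bases of single genes and the counts of 2-fold widths, 119 recomputed values were within that factor, 50 were not, and 1 difference past 1.5-fold reversed. At the start alone, genes with mutant H3K27ac numbered 4, by construction out of 7, and those with 1.5-fold higher H3K4me3 numbered 0. Genes with 1.5-fold lower H3K27ac at the ends numbered 3 with windows of 5 kb. Genes with 1.5-fold higher H3K4me3 at the ends numbered 0 with windows of 1 kb and 3 with 5 kb, and those with lower H3K4me3 numbered 1 in the wider 50%. Over the locus, genes with higher H3K27ac numbered 0 in the wider 50%, and those with lower H3K4me3 numbered 0 after joining peaks by either limit. The cause of these shifts was not tested. The H3K27ac difference at the ends of Kdm1b, mutant minus control, was -1813 bp with windows of 2 kb and 13 bp with 5 kb, which reach 2 mutant peaks beyond the smaller window. Among differences under 1.5-fold, the sign also turned at Kmt2a for H3K27ac (8 bp, and -747 bp with windows of 1 kb and at the start alone) and at Kmt2d for H3K4me3 (-733 bp, and 41 bp at the start alone).

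The number of genes whose widest H3K4me3 peak was 2-fold wider, added after the lists were seen, was 5 as deposited, 4 to 6 with other windows of both ends or other peak sets, and 3 of 7 at the start alone; joining peaks by either limit lost Kmt2c, and windows of 5 kb lost Kdm5a. No paired analysis was possible because the 2 libraries of a group have 1 list together. Leaving out each replicate was not run for the same reason. Depth and peak height were not in the lists.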
